A study of Mus musculus with 6 samples.

Results

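The genes that encode the respiratory chain and the ATP synthase were followed on expression arrays of mouse embryonic stem (ES) cells in which a human transcription factor gene, GTF2IRD2, was switched on. They were taken as every gene whose only symbol in the array's table begins with Ndufa, Ndufb, Ndufc, Ndufs, Ndufv, Uqcr, Cox4i, Cox5, Cox6, Cox7, Cox8 or Atp5, together with Sdha, Sdhb, Sdhc, Sdhd and Cyc1. This gave 91 of 18193 genes, measured by 180 of 45037 probe sets, and each gene was read from its brightest probe set, by the mean of the 6 arrays. By complex there were 34 genes of complex I, 8 of its assembly factors (the Ndufaf genes), 4 of complex II, 9 of complex III, 19 of complex IV and 17 of the ATP synthase. Ndufa4, Ndufa4l2 and Cox7a2l were counted with complex IV. A further 10 probe sets name such a gene beside another gene and were left out of all counts.

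All 6 cultures carried the same construct in the EBRTcH3 line, in which a 3xFLAG-tagged human GTF2IRD2 coding sequence at the ROSA26 locus is held silent by tetracycline. The uninduced group holds clones A3, A4 and A5 with tetracycline, at 0 hours, and the induced group holds the same clones 24 hours after its withdrawal, with 1 array per clone and state. Each clone is a single isolate, no array comes from cells without the transgene, and the effects of the transgene and of tetracycline withdrawal cannot be told apart. All p-values rest on the spread between these cultures alone. Mouse Gtf2ird2 differed by 0.18 ± 0.10 (log2, SE) between induced and uninduced arrays, but its probe set need not detect the human sequence, so these arrays do not check the labels on the transgene. The methods describe RT-PCR of the transgene in these clones, which is not analysed here. All 10 ES cell markers (Pou5f1, Sox2, Nanog and others) had means between 9.83 and 13.88, while the 8 fibroblast and feeder markers had means between 2.56 and 6.50.

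In oxidative phosphorylation, complex I takes electrons from NADH and complex II takes them from succinate, both passing them to coenzyme Q. Complex III hands them to cytochrome c and complex IV to oxygen, and the ATP synthase (complex V) uses the proton gradient so formed to make ATP. Most subunits are encoded in the nucleus and are made in nearly every cell, but several subunits of complex IV exist as pairs of a general isoform and one used mainly in heart and skeletal muscle, testis or hypoxic tissue. ES cells are known for a metabolism that leans on glycolysis while keeping an active respiratory chain.

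The sequence before the start of these genes was examined because the rule that chose them did not use it. RefSeq windows of 300 bases (build GRCm38.p6, 250 before and 50 after an annotated start) were available for 74 of the 91 genes, as 79 windows. The letters GCGCANGCG, a core of the site of NRF1, a factor that activates genes of respiration, were searched on both strands. They stood in 21 of the 79 windows, or 26.6%, against 6.25% of all 32851 promoter windows and 10.3% of the 16688 windows of protein-coding genes on the array. The 20 genes with a match were spread over all complexes: 6 of complex I, 2 of its assembly factors, 2 of complex II, 2 of complex III, 1 of complex IV and 7 of the ATP synthase. The letters AAGATGGCG of YY1 stood in 8.86% of the genes' windows, in 1.4% of all windows and in 2.19% of those of protein-coding genes on the array. The letters CCGGAAGT of ETS factors stood in 6.33%, 3.89% and 6.03%, so that their share was close to that of other protein-coding genes on the array. In 0 of the 79 windows did matches to different motifs overlap. These matches are descriptions of letters, not evidence of binding, and the windows of the respiratory genes also held more CpG, with a median of 20 a window against 7 in all windows and 17 in those of protein-coding genes on the array.

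Stretches of 41 bases around the first match are shown for Atp5h and for genes described further on, with the matched letters in capitals. They are read 5′ to 3′ on the strand of the gene.
Ndufa5 (chr6:24527692-24527732, minus strand): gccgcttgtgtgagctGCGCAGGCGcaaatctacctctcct
Ndufa8 (chr2:36049343-36049383, minus strand): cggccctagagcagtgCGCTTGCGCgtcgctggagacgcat
Ndufaf4 (chr4:24897954-24897994, plus strand): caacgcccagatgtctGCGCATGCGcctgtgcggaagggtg
Sdhd (chr9:50603904-50603944, minus strand): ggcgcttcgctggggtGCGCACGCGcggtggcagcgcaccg
Sdha (chr13:74350314-74350354, minus strand): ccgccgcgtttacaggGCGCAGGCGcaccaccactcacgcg
Cox6a1 (chr5:115349096-115349136, minus strand): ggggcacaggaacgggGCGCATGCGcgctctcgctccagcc
Atp5g2 (chr15:102671065-102671105, minus strand): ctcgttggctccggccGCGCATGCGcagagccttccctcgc
Atp5h (chr11:115420036-115420076, minus strand): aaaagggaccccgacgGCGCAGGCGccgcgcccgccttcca
In these 8 genes the match ended 181 bases before the start in Ndufa5, 20 in Ndufa8, 104 in Ndufaf4, 70 in Sdhd, 89 in Sdha, 153 in Cox6a1, 33 in Atp5g2 and 132 in Atp5h. The distance in Ndufa5 is from the start of the window chr6:24527477-24527776. A window of another Ndufa5 start, chr6:24527641-24527940, holds the same match nearer to its start, so this match counts in both windows. In Ndufa8 the letters are on the opposite strand.

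The 250 bases before the start are shown for 2 isoform pairs of complex IV, with each CpG in capitals, because in each pair one form was bright and the other dim or of middling brightness in these cells. Cox7a1 and Cox8b are isoforms of heart and skeletal muscle, and Cox7a2 and Cox8a are their general counterparts.
Cox7a1 (chr7:30183921-30184170, plus strand): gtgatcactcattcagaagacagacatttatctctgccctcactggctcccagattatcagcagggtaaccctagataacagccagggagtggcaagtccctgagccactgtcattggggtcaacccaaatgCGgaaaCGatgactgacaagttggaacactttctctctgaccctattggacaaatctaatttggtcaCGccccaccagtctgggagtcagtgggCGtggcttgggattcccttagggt
Cox7a2 (chr9:79759854-79760103, minus strand): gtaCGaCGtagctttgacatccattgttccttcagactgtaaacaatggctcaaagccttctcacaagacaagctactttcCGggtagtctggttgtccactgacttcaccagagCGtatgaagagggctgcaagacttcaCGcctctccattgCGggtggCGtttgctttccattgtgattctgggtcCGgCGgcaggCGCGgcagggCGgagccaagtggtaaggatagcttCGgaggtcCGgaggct
Cox8b (chr7:140900447-140900696, minus strand): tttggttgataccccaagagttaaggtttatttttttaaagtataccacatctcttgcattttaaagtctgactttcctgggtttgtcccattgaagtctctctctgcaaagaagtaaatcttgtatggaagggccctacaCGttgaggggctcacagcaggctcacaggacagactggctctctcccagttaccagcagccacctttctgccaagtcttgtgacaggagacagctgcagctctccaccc
Cox8a (chr19:7217617-7217866, minus strand): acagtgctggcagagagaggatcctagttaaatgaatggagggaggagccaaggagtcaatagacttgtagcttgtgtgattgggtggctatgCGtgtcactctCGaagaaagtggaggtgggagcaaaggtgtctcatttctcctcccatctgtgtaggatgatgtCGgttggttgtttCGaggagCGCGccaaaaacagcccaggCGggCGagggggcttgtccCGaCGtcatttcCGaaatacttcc
The stretch of Cox7a1 holds 4 CpG and that of Cox7a2 14, and the stretch of Cox8b holds 1 and that of Cox8a 11. Over whole windows, Cox6b2 and Cox7b2, isoforms of testis, hold 10 CpG each, and Cox6b1, the general counterpart of Cox6b2, holds 17.

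Most of the 91 genes were among the brightest on the array. A mean of at least 10 (log2 RMA, the normalised intensity on the log2 scale) was found for 71 of 91, or 78.0%, against 10.02% of all 18193 genes. The median over the genes was 11.17, against 6.15 over all genes. By complex, medians were 11.05 for complex I, 8.86 for its assembly factors, 10.68 for complex II, 11.56 for complex III, 10.88 for complex IV and 12.21 for the ATP synthase. Probe sets differ in how strongly they bind, so these are array brightness and not an order of mRNA amounts. All 9 genes of complex III lay between 11.01 (Uqcr11) and 13.34 (Uqcrb), and all 17 of the ATP synthase between 10.55 (Atp5md) and 13.11 (Atp5b, the catalytic beta subunit). Means under 10 were found for 7 of 8 assembly factors of complex I, for 4 of the 34 genes of complex I (Ndufb1 at 7.44, Ndufb4 at 3.72, Ndufs4 at 9.97 and Ndufs5 at 9.39) and for 9 of 19 of complex IV, namely 8 tissue isoforms and Cox7c (5.34). Of Ndufb4, 2 further probe sets, which name it beside Ndufb4b and Ndufb4c, lay between 10.67 and 11.56 on the arrays. A further probe set that names Ndufs5 beside Ndufs5-ps lay between 10.33 and 10.51.

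The isoforms of complex IV took different places on the array. Cox4i1, the general form of subunit 4, lay between 12.67 and 12.90, at the 99.4 percentile of brightness over all probe sets. Cox4i2, the form of lung and hypoxic tissue, lay between 4.99 and 5.34, at the 51.2 percentile. For the muscle isoforms, Cox6a2 lay between 6.09 and 6.30 (percentile 65.2), Cox8b between 4.91 and 5.11 (percentile 49.6), and Cox7a1 between 6.75 and 7.78 (percentile 74.8). Their general counterparts Cox6a1, Cox8a and Cox7a2 ranged over the arrays from 13.17 to 13.25, from 11.34 to 11.50, and from 12.80 to 12.92. All 3 were thus near the top of the array in every culture, while Cox8b and Cox4i2 sat near its middle. Of the testis isoforms, Cox6b2 lay between 8.41 and 8.91 (percentile 85.7) beside its counterpart Cox6b1 at 12.61 to 12.67. Cox8c lay between 7.52 and 7.72 and Cox7b2 between 3.53 and 3.85, the latter in the dimmer part of the array (percentile 26.0). Ndufa4l2, a hypoxia-induced relative of Ndufa4, lay between 7.63 and 8.34 (percentile 80.7), and Ndufa4 between 11.49 and 11.57. The 3 genes Atp5g1, Atp5g2 and Atp5g3, which encode the same mature subunit c of the ATP synthase ring, were all bright, with means of 11.70, 12.36 and 12.86.

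**Figure D1:**
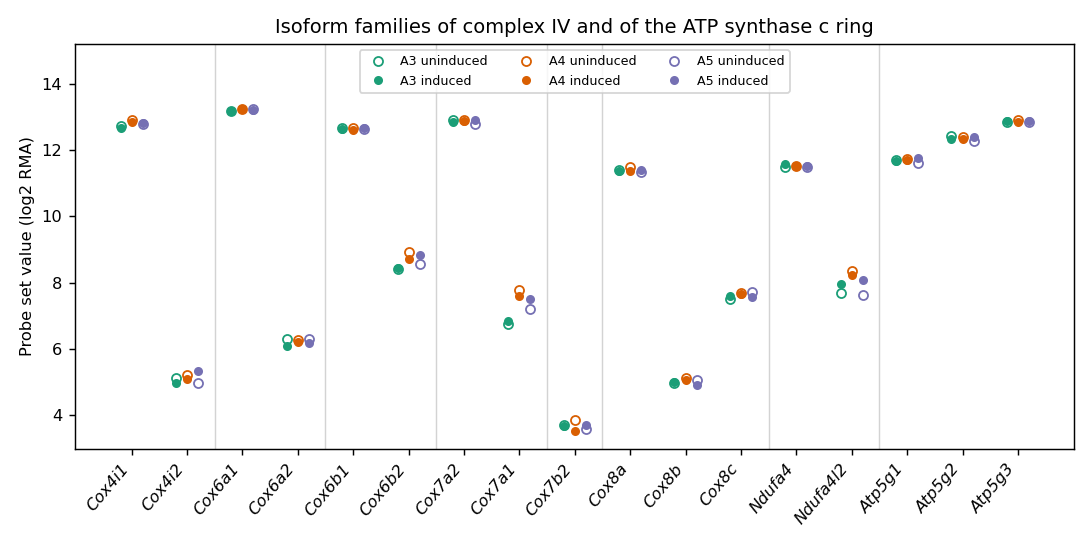
Probe set values (vertical axis, log2 RMA) of isoform families in the 6 arrays, with open circles for uninduced and filled circles for induced cultures and colours for the clones. The 8 tissue isoforms have means between 3.68 and 8.64 and their 6 general counterparts between 11.39 and 13.21, and Cox7a1 spreads the most over clones.

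Markers of the tissues in question were measured alongside. The 9 markers of striated muscle had means between 3.42 and 5.93, with a mean level of 5.04 to 5.09 in uninduced and 5.04 to 5.09 in induced arrays, and 0 of 9 differed between groups or clones in limma. The 7 testis germ cell markers had means between 3.22 and 9.18. Their part in the isoforms' levels was not tested, and in bulk RNA fewer cells of a type and less RNA per cell cannot be told apart.

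The first comparison asked whether the respiratory genes differed once GTF2IRD2 was induced. In limma, 0 of 91 genes passed an adjusted p of 0.05, with or without the clone as a block, where 0.0% of all probe sets passed. At an unadjusted p under 0.05 the count was 0 of 91 in limma (background 3.12% of all probe sets), 0 with the clone as a block (5.77%) and 3 with the methods' t-test (3.73%): Ndufaf4, Cox6a2 and Atp5j. The median difference over the 91 genes was -0.0076 on the log2 scale, against -0.0028 over all genes. Single differences ran from -0.12 to 0.21, with an SD over genes of 0.053, against 0.057 over the 1823 genes with a mean of at least 10. Of the 95% intervals, 89 of 91 lay within a 1.5-fold difference in either direction. So did those of 17790 of all 18193 genes and 1810 of the 1823 with a mean of at least 10. The exceptions among the 91 were Cox7a1 (-0.55 to 0.69) and Ndufa4l2 (-0.20 to 0.61). All these intervals are from the fit without a block and include the spread between clones.

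**Figure D2:**
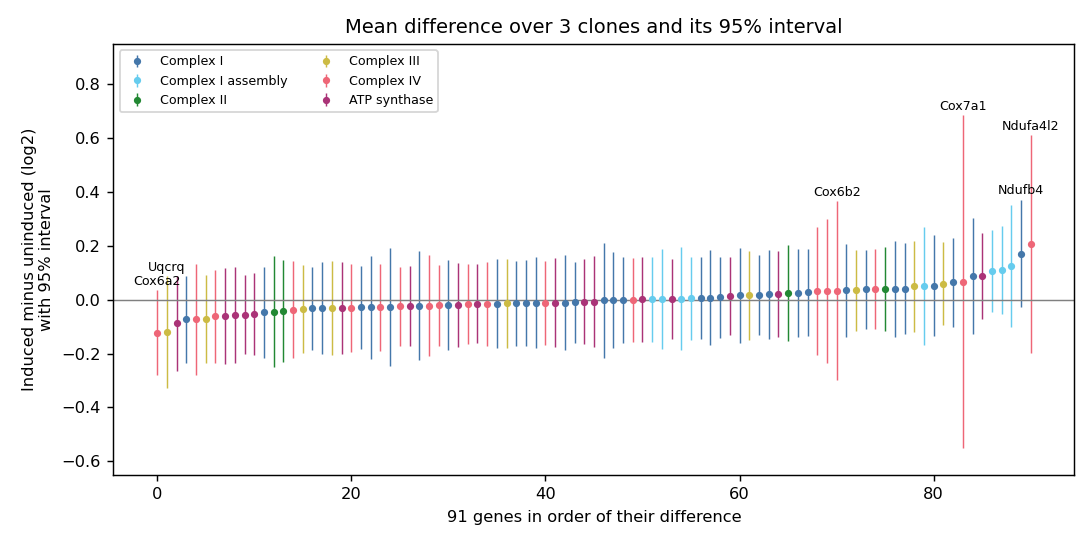
Mean induced minus uninduced difference (points, log2) with its 95% interval (lines, limma without a block) for the 91 genes in order of difference, coloured by complex. Every interval includes 0, and the widest belong to Cox7a1 and Ndufa4l2.

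The subunits of complex I stayed within -0.073 (Ndufa2) and 0.17 (the dim Ndufb4), with 16 of 34 genes above 0. Ndufa5, an accessory subunit, had 10.93, 10.90 and 10.83 in uninduced A3, A4 and A5 and 11.03, 10.94 and 10.89 in the induced cultures, a difference of 0.065 ± 0.072 (SE, limma, adjusted p = 1.00). Its value was higher after induction in each clone, yet the groups overlapped. A second probe set of Ndufa5 differed by -0.026 ± 0.074, with mixed signs over the clones. Ndufb3 was the 1 gene of complex I that was lower in all 3 clones, at -0.023 ± 0.089. Ndufab1, the mitochondrial acyl carrier protein, was the 1 gene of complex I whose induced arrays (12.13, 12.18 and 12.13) all lay above its uninduced ones (12.12, 12.12 and 12.09), by 0.038 ± 0.065.

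All 8 assembly factors of complex I had a mean difference above 0, from 0.0017 (Ndufaf7) to 0.13 (Ndufaf1), and 0 of 8 passed the threshold. Their median of 0.028 rests on single arrays: it was -0.012 without uninduced A5 and 0.088 without uninduced A4. Ndufaf4 had 9.99, 9.94 and 9.88 in uninduced A3, A4 and A5 and 10.06, 10.03 and 10.05 in induced cultures, a difference of 0.11 ± 0.067. The induced arrays all lay above the uninduced ones. A second, dimmer probe set of Ndufaf4 differed by -0.037 ± 0.090, so the sign rests on the probe set chosen. Ndufaf2 had 8.70, 8.82 and 8.68 and then 8.87, 8.88 and 8.79, a difference of 0.11 ± 0.072 that was positive in each clone, with overlapping groups. Ndufaf1 differed by 0.27 in A3 and 0.17 in A5 but by -0.058 in A4. The clones did not move together: 7 of 8 factors were higher after induction in A3 and in A5, but 2 of 8 in A4, where the median was -0.059.

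In complex II, the flavoprotein Sdha had 10.61, 10.54 and 10.59 in uninduced and 10.63, 10.57 and 10.67 in induced A3, A4 and A5, a difference of 0.040 ± 0.068. The iron-sulfur subunit Sdhb differed by -0.044 ± 0.090, and the membrane anchors Sdhc and Sdhd by 0.025 ± 0.079 and -0.041 ± 0.083. A second probe set of Sdhd differed by 0.16 ± 0.082, so the sign rests on the probe set chosen. In complex III, Cyc1, the cytochrome that reduces cytochrome c, had 12.78, 12.82 and 12.76 and then 12.78, 12.84 and 12.85, a difference of 0.036 ± 0.066. Uqcrq, a small subunit bound to cytochrome b, had 11.58, 11.76 and 11.78 in uninduced and 11.45, 11.70 and 11.61 in induced cultures. This was lower in each clone, by -0.12 ± 0.091 on average, with overlapping groups. Over the 4 probe sets of Uqcrq the difference ran from -0.12 to 0.053.

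In complex IV the differences of the general subunits lay close to 0. Cox6a1 differed by -0.021 ± 0.066, Cox4i1 by -0.022 ± 0.082, Cox5a by -0.028 ± 0.070 and Cox5b by -0.015 ± 0.068. The muscle isoform Cox6a2 had 6.30, 6.28 and 6.30 in uninduced A3, A4 and A5 and 6.09, 6.22 and 6.19 in induced cultures, a difference of -0.12 ± 0.069 (adjusted p = 1.00) with groups that did not overlap. Ndufa4l2 had the largest difference of the 91 genes, 0.21 ± 0.18, but the clones gave 0.28 (A3), -0.12 (A4) and 0.46 (A5). In the ATP synthase, Atp5k (subunit e of the membrane part) had 12.01, 12.11 and 12.12 and then 11.89, 12.06 and 12.03, a difference of -0.088 ± 0.077, lower in each clone. Atp5j (coupling factor 6) had 12.27, 12.26 and 12.30 and then 12.21, 12.24 and 12.22, with the groups apart, a difference of -0.055 ± 0.064. Atp5c1, the gamma subunit of the rotor, differed by -0.053 ± 0.066 and was lower in each clone. Catalytic Atp5a1 and Atp5b differed by 0.0026 ± 0.065 and 0.015 ± 0.064.

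Counts of direction did not set the 91 genes far from the rest of the array. All 3 clones were higher in 8 genes (8.79%) and lower in 7 (7.69%), where 12.9% and 13.3% of all genes were. Induced arrays lay wholly above uninduced ones in 2 genes, Ndufab1 and Ndufaf4, and wholly below in 2, Cox6a2 and Atp5j, against 3.16% and 4.07% of all genes. Of the 51 genes with more than 1 probe set, 27 had probe sets whose differences were of both signs.

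Within clones the genes shifted together by small amounts, and not in 1 direction. In A3, 59 of 91 were lower after induction (median -0.029), in A4 64 of 91 were lower (median -0.038), and in A5 69 of 91 were higher (median 0.038). Over the 1823 genes with a mean of at least 10, a comparison added after the values were seen, the medians were -0.022, -0.0012 and 0.025. Of these 1823, 40.9%, 49.4% and 61.1% were higher in A3, A4 and A5, and of all genes 45.6%, 50.3% and 51.1%. Bright genes at large thus leaned the same way in A3 and A5. The signs of the 3 medians of the 91 genes were kept when each array was centred on its median (-0.022, -0.023 and 0.056) and when arrays were quantile normalised again (-0.018, -0.040 and 0.025). By complex, the ATP synthase had 14 of 17 genes lower in A3, 16 of 17 lower in A4 and 13 of 17 higher in A5, and complex I had 26 of 34 higher in A5. With 1 array per clone and state, none of these clone values has a replicate and none was tested. The RNA control spikes added before labelling also differed within clones, with 0.34 for clone A3, 0.11 for A4 and 0.56 for A5 (induced minus uninduced mean of their probe sets, log2), and their part in these shifts was not tested.

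**Figure D3:**
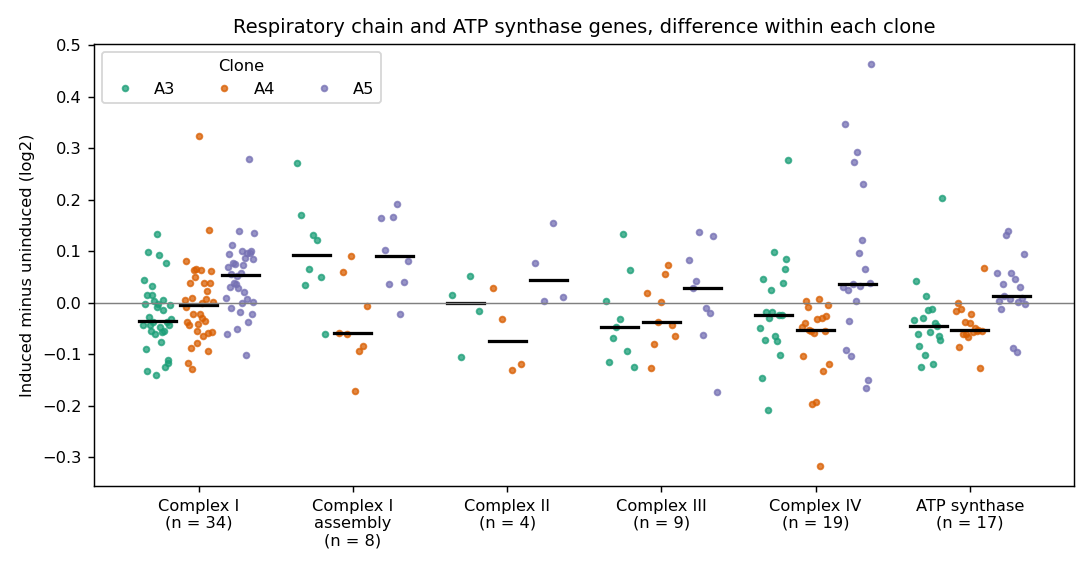
Induced minus uninduced difference (log2) of each gene within each clone, by complex; points are genes, colours are clones and black lines are medians over genes. Medians lie below 0 in A3 for every set but the assembly factors and in A4 for all 6 sets, and above 0 in A5 for all 6 sets.

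The second comparison asked how far the clones differed in the same genes, whatever the state. Of the 91 genes, 1 passed limma's F-test of the clone term, Cox7a1, where 2.18% of all probe sets and 3.09% of all genes passed. At an unadjusted p under 0.05 the genes were Cox7a1, Ndufa4l2 and Cox6b2, or 3 of 91 (3.30%), against 17.4% of all genes. Over the 91 genes the range of clone means had a median of 0.092, against 0.11 over the 1823 genes with a mean of at least 10 and 0.15 over all genes. All 3 genes with the smallest p are tissue isoforms of complex IV, but the 8 tissue isoforms had a median range of 0.11. Cox4i2, Cox6a2, Cox7b2, Cox8b and Cox8c did not pass the F-test of the clone term (adjusted p 0.72 to 0.96).

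Cox7a1, the heart and skeletal muscle form of subunit 7a, had 6.75 in uninduced and 6.84 in induced A3, 7.78 and 7.59 in A4, and 7.22 and 7.51 in A5. Both A3 arrays lay below all others, and the arrays of A4 lay above those of A5. The mean of A3 was lower than that of A4 by 0.89 ± 0.12 (log2, SE), or 1.85-fold, with an adjusted p of 0.019 for the clone term and 0.0082 for this pair in limma. A3 was lower than A5 by 0.57 ± 0.12 (adjusted p = 0.063), and A4 and A5 differed by 0.32 ± 0.12 (adjusted p = 0.65). The call rests on the A3 arrays: the adjusted p of the clone term was 0.089 without uninduced A3, 0.096 without induced A3 and the smallest among the 91 genes was 0.59 without both. Over all 45037 probe sets, calls of the clone term also fell from 980 to 26 without both A3 arrays. The call of Cox7a1 was also lost with an ordinary F-test (adjusted p = 0.54). Its counterpart Cox7a2 had clone means of 12.88, 12.88 and 12.84. Markers of striated muscle had mean levels of 5.07, 5.09 and 5.04 in the clones, and 0 of 9 passed the clone threshold.

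The next protein-coding gene beside Cox7a1 on chromosome 7 in RefSeq, Capns1, which encodes the small subunit of calpain, was examined after its values were seen. It had 10.75 and 10.77 in A3 (uninduced, induced), 11.28 and 11.24 in A4 and 11.39 and 11.44 in A5, so that A3 was again below all other arrays (adjusted p = 0.014 for the clone term). Among the 6 protein-coding neighbours on each side, 8 were measured in all, and Capns1 was the 1 that passed. Tbcb, the gene after it, had clone means of 11.04, 11.17 and 11.21 (adjusted p = 0.54). A3 was highest in Zfp566 (8.72, 8.55 and 8.45) and Wdr62 (7.50, 7.32 and 7.34). It was lowest in Polr2i, while A5 was lowest in Zfp14 and Zfp82 and A4 in Clip3. Whether the clones differ in DNA at this place was not tested.

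Ndufa4l2 had 7.69 and 7.97 in A3, 8.34 and 8.22 in A4 and 7.63 and 8.09 in A5 (uninduced, induced), with clone means of 7.83, 8.28 and 7.86. Both A4 arrays lay above the rest, and the range of clone means was 0.45 (adjusted p = 0.20 for the clone term). Under a variance prior that follows intensity, the adjusted p of Ndufa4l2 was 0.042. Cox6b2, the testis form of subunit 6b, had 8.41 and 8.44 in A3, 8.91 and 8.72 in A4 and 8.56 and 8.83 in A5, with both A3 arrays the lowest (range 0.39, adjusted p = 0.25). The dim Cox7c had a range of 0.30, with A3 highest. The other genes among the 10 largest ranges had A4 highest, except Sdhb (0.20), which had A5 highest: they were Ndufa8 (0.24), Uqcrq (0.21), Ndufb3 (0.21), Ndufaf1 (0.21) and Ndufb2 (0.19). None of these, Cox7c included, passed (adjusted p 0.34 to 0.54). Ndufa8, an accessory subunit whose promoter match is shown above, had 10.80 and 10.74 in A3, 11.001 and 11.010 in A4 and 10.92 and 10.96 in A5. Its A3 arrays were the lowest and its A4 arrays the highest. At the other end, Atp5a1, Atp5g3 and Cox6b1 had ranges of 0.0068, 0.0091 and 0.014.

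The genes also leaned together between clones by amounts far below those of Cox7a1. Clone means were lower in A3 than in A4 for 70 of 91 genes (median difference -0.059) and higher in A4 than in A5 for 73 of 91 (median 0.037). Over all genes, the first clone named was higher in 47.0% for A3 against A4 and 49.1% for A4 against A5, and over genes with a mean of at least 10 in 53.4% and 47.0%. A4 had the highest clone mean in 60 of 91 genes (65.9%), against 35.4% of all genes. This held in 25 of 34 genes of complex I and 7 of 9 of complex III, but in 8 of 17 of the ATP synthase. Both leanings kept their direction when arrays were centred on their medians (62 and 70 of 91) and when they were quantile normalised again (72 and 75). A3 and A5 had no such leaning: A3 was lower in 51 of 91 genes as deposited and in 40 of 91 after centring, so that the direction of this pair turned with the scaling. The genes of 1 array are not independent, and no test of these counts was made.

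**Figure D4:**
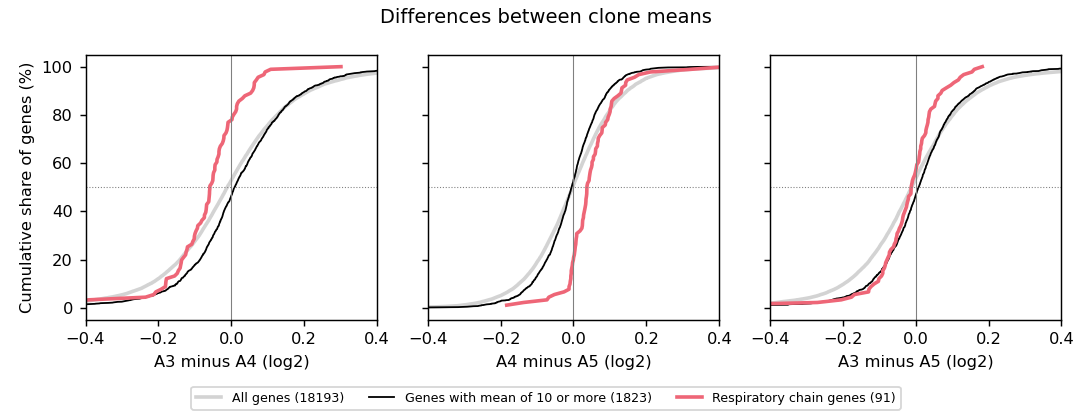
Cumulative share of genes (vertical axis, percent) by the difference between clone means (horizontal axis, log2, shown from -0.4 to 0.4) for the 91 respiratory chain genes, genes with a mean of at least 10 and all genes. The curve of the 91 genes is shifted left for A3 minus A4 (median -0.059) and right for A4 minus A5 (median 0.037).

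Genes that work around the respiratory chain were taken from 11 lists of 141 genes, of which 121 were measured by a probe set with 1 symbol. In limma 0 of 121 differed between induced and uninduced arrays, and 6 differed between clones (4.96%, against 3.09% of all genes). The assembly lists held 2 of them. Nubpl, which brings iron-sulfur clusters to complex I, had 8.66 and 8.72 in A3, 9.30 and 9.31 in A4 and 9.10 and 9.14 in A5 (uninduced, induced), with an adjusted p of 0.019 for the clone term. Uqcc2, needed to assemble cytochrome b into complex III, had 10.26 and 10.03 in A3, 10.75 and 10.73 in A4 and 10.70 and 10.65 in A5 (adjusted p = 0.025). In both, the A3 arrays were the lowest and the A4 arrays the highest.

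Of the 9 measured carriers and uncouplers, Cyct, the testis form of cytochrome c, differed, with clone means of 7.07, 7.82 and 7.41 in A3, A4 and A5 (adjusted p = 0.018), the same order as Cox7a1. Of 16 genes of coenzyme Q synthesis and electron entry, Coq2, which attaches the side chain of coenzyme Q, had clone means of 8.65, 9.15 and 9.11 (adjusted p = 0.046). In the list on the switch between respiration and glycolysis, 2 of 16 passed. Egln3, a prolyl hydroxylase that marks HIF for decay, had clone means of 7.86, 8.84 and 8.27 (adjusted p = 0.0086). Pdk4, a kinase that inhibits pyruvate dehydrogenase, had 4.79, 5.45 and 5.36 (adjusted p = 0.017). In each of the 6 genes A3 had the lowest and A4 the highest clone mean. Over all genes A4 had the highest clone mean in 35.4%. The share of called genes at large with this order is not given here, so the order cannot be called particular to these genes. Egln3 and Pdk4 were also higher after induction in each clone, by 0.34 ± 0.29 and 0.41 ± 0.21, without passing (adjusted p = 1.00 in limma and 0.84 with the clone as a block). These SEs are from the fit without a block and include the spread between clones. In A3, A4 and A5 the differences were 0.25, 0.22 and 0.55 for Egln3 and 0.36, 0.33 and 0.55 for Pdk4.

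**Figure D5:**
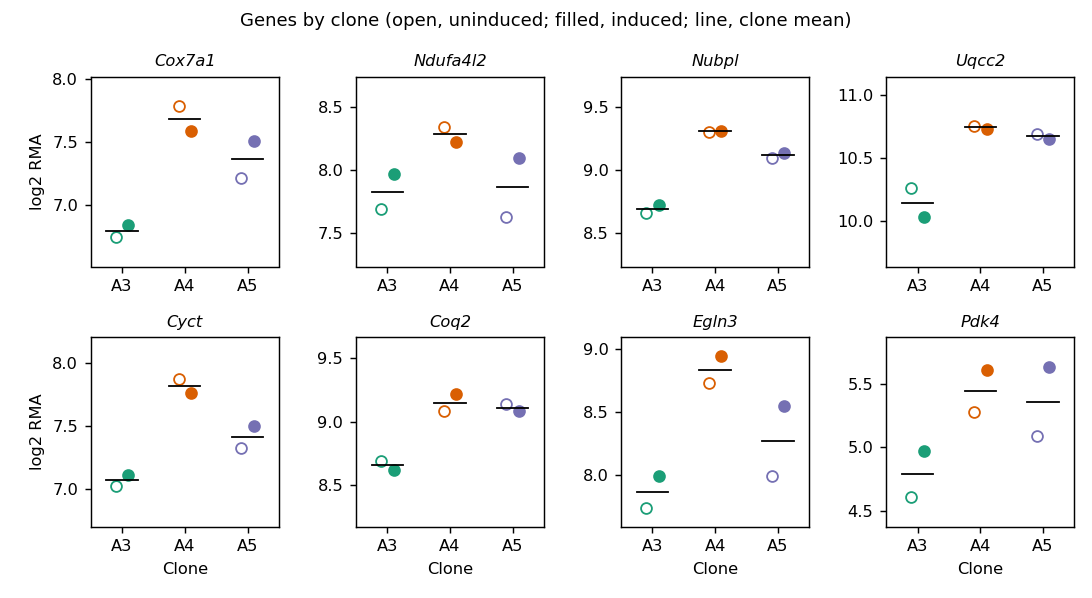
Values (log2 RMA) of Cox7a1, Ndufa4l2 and the 6 list genes past the clone threshold in each array, by clone, with open circles for uninduced, filled circles for induced and lines for clone means; each panel spans the same 1.5 units. The A3 mean is the lowest in all 8 panels and the A4 mean the highest, but all genes except Ndufa4l2 are shown because they passed the clone threshold.

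These 6 calls depended on single arrays more than their values did. Egln3 was called whichever 1 array was left out (adjusted p 0.0049 to 0.043). Without 1 array at a time, the adjusted p ranged from 0.028 to 0.13 for Nubpl, 0.035 to 0.24 for Uqcc2, 0.017 to 0.080 for Cyct, 0.056 to 0.32 for Coq2 and 0.016 to 0.16 for Pdk4, and all of these were lost without either array of A3. Nubpl was also lost without either A4 array, Cyct without uninduced A4, Uqcc2 without induced A4, and Coq2 whichever array was left out. Without both A3 arrays 0 of the 6 passed, but calls then fell over the whole array, from 980 to 26 of 45037 probe sets.

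In the other lists nothing passed, and up to 2 genes a list with the largest induced minus uninduced differences at a mean of at least 5 are given as values. In the assembly of complex IV, Cox15 (heme A synthesis) differed by 0.14 ± 0.073, higher in each clone, and Pet100 by 0.093 ± 0.12. For complex II, Sdhaf3 differed by 0.031 ± 0.090 and Sdhaf1 by 0.028 ± 0.090, and for the ATP synthase, Atpaf2 by -0.067 ± 0.079 and Tmem70 by 0.025 ± 0.14. Ogdh and Pcx, of the tricarboxylic acid cycle and its refilling, differed by -0.13 ± 0.089 and -0.15 ± 0.080. Among 22 regulators of respiratory genes, the nuclear receptor Esrrb differed by -0.17 ± 0.11 and Tfb2m, which serves mitochondrial transcription, by 0.13 ± 0.086. Of the 13 subunits encoded by mitochondrial DNA, ND5 was the 1 measured: it had 10.39, 9.82 and 10.06 in uninduced A3, A4 and A5 and 9.92, 9.70 and 10.27 in induced cultures, a difference of -0.13 ± 0.17 with different signs in different clones.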

How the data were processed

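Total RNA of 6 ES cell cultures was measured on Affymetrix mouse arrays. The deposited values are log2 RMA intensities, 1 per probe set, which the authors made with the affy package (background correction, quantile normalization, summarization). Versions are not given in the sources used here. A shift of all genes alike would not show after quantile normalization. Of 45101 probe sets, 64 controls were set aside.

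Groups were compared with limma 3.58.1 in R 4.3.3 (two-sided, Benjamini-Hochberg over 45037 probe sets), without a block, since the methods name a t-test and mention no pairing. Clones were compared by the moderated F-test of clone in a model with induction. Equal numbers mark the same clone and so pair the arrays: deviations correlated at 0.524 (A3), 0.376 (A4) and 0.210 (A5), against -0.407 to 0.0689 across clones. Alternatives were the replicate block, the methods' t-test, scalings, filters and leaving out arrays. Array number limits precision. Both models were tested on simulated data.

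Genes, lists and markers were chosen with earlier results of these data known. Named were genes past a threshold, the extremes of each complex among genes with 1 sign in all clones and a mean of at least 5, the 10 largest clone ranges, isoform pairs, complex II, Cyc1 and, per list, those past a threshold or else up to 2. Any other gene was picked with its values known.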

Additional observations from a re-analysis of the deposited data

How the results depend on the processing

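The induction result was the same under all alternatives tried: 0 of 91 genes passed with the replicate block (smallest adjusted p 0.84), the methods' t-test, the paired t-test, an intensity-dependent prior, other scalings, other probe set choices, and without any 1 array or clone. The median difference over the 91 genes stayed between -0.021 and 0.018 when 1 array was left out, so that its sign is not settled. The clone count was 0 with an ordinary F-test (0 of all probe sets), 2 with the intensity-dependent prior (Cox7a1 and Ndufa4l2, with 2641 of all probe sets against 980 without it), 0 without both A3 arrays and 0 to 1 without 1 array. It was 1 under each of the other alternatives. Over the whole array, 26 probe sets passed without both A3 arrays. Without 1 array, many of the named genes had induced minus uninduced differences of either sign. Among them were Cox7a1 (-0.185 to 0.33), Sdhb (-0.095 to 0.035), Sdhc (-0.011 to 0.083), Sdhd (-0.091 to 0.024) and Cyct (-0.14 to 0.28). Others kept their sign, such as Cox6a2 (-0.15 to -0.083) and Ndufaf4 (0.078 to 0.13). Some differences with 1 sign in all clones also turned under an alternative. Ndufb3 ranged from -0.086 to 0.039 without 1 array, and was 0.026 without uninduced A4 and 0.039 without induced A5. Nubpl ranged from -0.14 to 0.20, with -0.14 without uninduced A3, -0.092 without induced A4 and -0.0048 without induced A5. Uqcc2 ranged from -0.25 to 0.12 and was 0.12 without induced A3. Sdha was -0.034 as the mean of its probe sets. Leaving out an array unbalances the clones between groups. The cause of the other changes was not tested.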
